A study of Mus musculus with 6 samples.

Results

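The lipid and cholesterol synthesis genes were 37 genes chosen by symbol, out of 18207 symbols in the table, and covered fatty acid, triglyceride and sterol synthesis, the uptake and storage of lipid, and the regulators of both branches. They were measured by RNA sequencing in luminal progenitors, the immature secretory-lineage cells of the mammary epithelium, which were sorted as Lin-CD24loCD29+CD61+ cells from mammary glands of adult nulliparous mice. The 6 libraries comprised 3 from Robo1+/+ animals (gh03, gh09 and gh15) and 3 from their Robo1-/- littermates (gh06, gh12 and gh18), from Robo1+/- intercrosses per the labels, with 2 animals pooled in each library. The Robo1-/- animals were homozygous for the Robo1tm1Matl allele in every cell and not in the mammary epithelium alone. The labels do not say on which days the pools were made, so p-values measure only the spread between these libraries.

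The comparison asks whether RNA of the lipogenic genes differed between genotypes before pregnancy. Milk-producing alveolar cells make fatty acids from acetyl-CoA, desaturate and elongate them, join them to glycerol as triglyceride and secrete them as milk fat globules. Both this branch and the mevalonate branch to cholesterol are switched on by the SREBP proteins, which are encoded by Srebf1 and Srebf2. Their precursors are held in the endoplasmic reticulum by Insig proteins when sterol is plentiful, and are escorted to the Golgi for cleavage by Scap when it is scarce. In the textbook account the lipogenic genes rise as luminal progenitors mature into secretory cells in pregnancy. In bulk samples, fewer cells of a type and less RNA per cell cannot be told apart.

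No gene of the 37 passed an adjusted p of 0.05 between genotypes (limma, Benjamini-Hochberg over 13692 tested genes). The lowest adjusted p among them was 0.858 with limma, 0.913 with edgeR and 0.994 with DESeq2. Across all genes, limma and edgeR called 0 and DESeq2 called 1 of 18531 (0.0054%), which was none of the 37. Of the 36 genes that could be tested, 24 were lower and 12 higher in Robo1-/- by point estimate, with a median log2 fold change of -0.20 against 0.00 over all tested genes. At an unadjusted p under 0.05, limma called 1 gene, Fads2, which was lower. That rule called 1.69% of all tested genes in either direction with 0.92% in the lower direction and 0.767% in the higher, where 0 of the 36 genes were called. The targeted gene Robo1 read 289, 574 and 541 in wild-type libraries against 130, 214 and 177 in the mutant ones, with no overlap (log2 fold change -1.39, SE 0.36).

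Values are normalized read counts, the authors' counts divided by 1 size factor per library, and are given in the order gh03, gh09, gh15 for Robo1+/+ and gh06, gh12, gh18 for Robo1-/-. Each library held 9727191 to 17433868 reads, so that 1 read was worth 0.784 to 1.46 units. All 8 markers of luminal progenitors were present, at a summed 80157 to 90182 in Robo1+/+ and 39787 to 96910 in Robo1-/-, with gh18 the lowest. The keratins Krt8 and Krt18 made up most of this sum in every library. In gh18 they stood at 11182 and 11522, against 28162 or more elsewhere. Cd14 was also lowest in gh18, at 1605 against 3406 to 4353. Kit, a receptor of these cells, stood at 4209 to 5644 over the 6 libraries, and Kit, Elf5, Aldh1a3, Itgb3 and Foxc1 were not lowest in gh18. Markers of mature luminal cells were also high, at a summed 47292 to 59843 in Robo1+/+ and 62200 to 74207 in Robo1-/-, sums that did not overlap and that Prlr and Areg made up for the most part. Prlr overlapped between genotypes, and Cited1 and Wnt4 of the same list were low in gh18, at 286 and 4.38. The part of these markers in the results was not tested. Fat cells of the mammary fat pad also express many of these lipid genes. Of the 10 adipocyte markers 3 were among the rows, of which Fabp4 and Retn stood at 3.92 or less in every library. The remaining marker, Lipe, which many cells express, stood at 74.4 in gh18 and at 514 to 919 in the other libraries. Basal markers summed to 686 to 2218 in Robo1+/+, with gh03 the highest, and to 869 to 1571 in Robo1-/-. Fibroblast markers summed to 710 to 841 and 325 to 1062. Endothelial markers summed to 625 to 2224 and 174 to 1128, most of it Vwf (2167, 1437 and 570 against 1054, 357 and 140). Leukocyte markers summed to 120 to 163 and 99.2 to 125. The part of these cells in the lipid values was not tested.

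One library, gh18, stood apart. Taken as a log2 deviation from the average of the remaining 5 libraries, its values were lower the higher the GC content of the transcript, with Spearman's rho of -0.81 over 12542 genes and -0.93 over the 35 lipid and sterol genes that had a GC value. All 11 of these genes with 55 to 62% GC lay below the mean of the other libraries in gh18, by a median of -2.16 on the log2 scale, against -1.66 for all 3009 genes in that range. They were Srebf1, Srebf2, Scap, Acacb, Fasn, Fads2, Dgat1, Dgat2, Cidea, Mvk and Mvd. All 5 genes with 35 to 45% GC (Elovl5, Elovl6, Lpl, Cd36 and Idi1) lay above. Fold changes were therefore read 3 ways, from all 6 libraries as deposited, after subtracting the trend on GC content from every library, and without gh18. The correlation is a description across genes, which share their library.

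**Figure D1:**
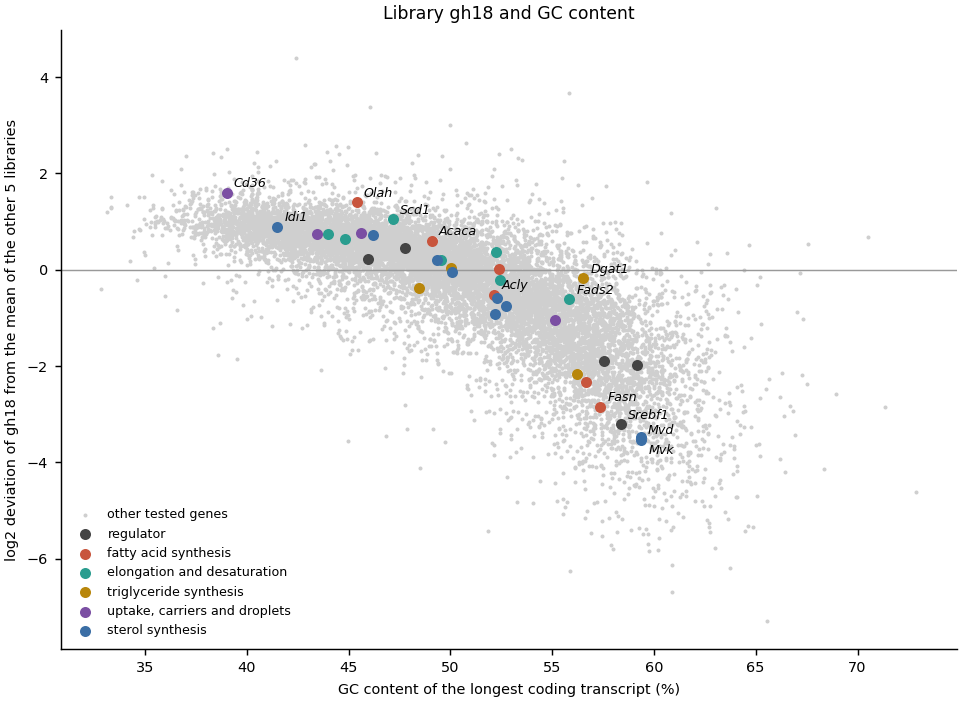
Log2 deviation of gh18 from the average of the remaining 5 libraries (y axis) against GC content of the longest coding transcript in percent (x axis). Each grey point is a tested gene and each coloured point 1 of the 35 lipid and sterol genes with a GC value, by class; Mvd and Mvk lie lowest among them at 59.3 and 59.4% GC, and all 11 coloured points from 55 to 62% lie below 0.

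The promoters of 5 of these genes are shown. Acly, Mvd, Srebf2 and Fasn were lower without overlap or at an unadjusted p under 0.05 (limma) after the GC correction. Hmgcs1 is added because it carries more of the sterol regulatory letters than any other gene of the set at a single start. Fads2, the gene called as deposited, had no match to the motifs searched below and is not shown. Each run is the 250 bases before the RefSeq transcription start on build GRCm38.p6, 5′ to 3′ on the strand of the gene. Capitals mark matches on either strand to TCACNCC, the core of the element bound by SREBP, and to CCAAT, the box bound by NF-Y, which acts beside SREBP at sterol genes. The E-box CACGTG was also searched and had no match in these 5.
Hmgcs1, chr13:119690101-119690350, plus strand: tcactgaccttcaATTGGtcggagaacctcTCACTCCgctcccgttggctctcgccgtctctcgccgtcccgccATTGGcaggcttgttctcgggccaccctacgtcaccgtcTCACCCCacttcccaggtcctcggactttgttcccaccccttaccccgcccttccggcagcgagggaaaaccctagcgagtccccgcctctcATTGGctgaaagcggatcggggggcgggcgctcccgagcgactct
Srebf2, chr15:82147019-82147268, plus strand: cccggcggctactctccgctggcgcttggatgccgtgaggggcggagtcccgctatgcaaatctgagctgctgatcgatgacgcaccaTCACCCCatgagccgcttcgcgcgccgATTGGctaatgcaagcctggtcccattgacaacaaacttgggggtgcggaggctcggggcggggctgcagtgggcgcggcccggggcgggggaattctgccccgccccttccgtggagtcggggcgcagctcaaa
Mvd, chr8:122443423-122443672, minus strand: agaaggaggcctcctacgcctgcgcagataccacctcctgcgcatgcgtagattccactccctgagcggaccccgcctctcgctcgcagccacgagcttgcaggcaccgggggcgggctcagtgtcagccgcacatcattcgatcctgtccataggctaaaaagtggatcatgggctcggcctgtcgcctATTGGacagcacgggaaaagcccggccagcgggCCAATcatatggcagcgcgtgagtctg
Fasn, chr11:120824548-120824797, minus strand: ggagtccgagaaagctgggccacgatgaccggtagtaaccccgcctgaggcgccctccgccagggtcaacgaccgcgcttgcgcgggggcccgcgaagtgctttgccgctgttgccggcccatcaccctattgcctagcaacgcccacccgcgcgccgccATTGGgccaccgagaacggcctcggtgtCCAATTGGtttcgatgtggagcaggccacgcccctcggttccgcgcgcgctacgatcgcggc
Acly, chr11:100528001-100528250, minus strand: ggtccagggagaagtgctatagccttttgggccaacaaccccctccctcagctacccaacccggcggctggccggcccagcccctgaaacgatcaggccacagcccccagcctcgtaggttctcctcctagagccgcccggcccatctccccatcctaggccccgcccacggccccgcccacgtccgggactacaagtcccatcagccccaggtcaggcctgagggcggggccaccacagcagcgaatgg

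Hmgcs1 held 2 matches to TCACNCC and 3 to CCAAT, and Srebf2 held 1 of each. Mvd held 2 CCAAT boxes and Fasn 3, of which the last pair overlapped on opposite strands. Acly had no match. Of the 37 genes, 26 had a promoter in the RefSeq table, with 35 starts among them. A CCAAT box lay within 250 bases upstream in 18 of the 26 (69.2%), including 7 of 7 sterol synthesis genes, against 37.5% of 27025 genes in that table and 40.8% of its 8986 genes that were tested here. TCACNCC was found in 4 of the 26 (15.4%), against 15.1% of all genes in the table, and CACGTG also in 4 (15.4%), against 6.86%. Among the tested genes of the table the shares were 17.0% and 9.99%. A match is a run of letters and not a measured binding site.

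The genes spanned 3 orders of magnitude in level. Per kb of transcript, Scd1, the desaturase that makes oleate, was highest in Robo1+/+ at 2801 ± 473 (SD, n = 3), above 98.0% of tested genes. Acly, Fads2 and Fabp5 followed at 1073 ± 161, 1028 ± 269 and 872 ± 531 per kb, and these 3 neighbours in the order did not differ beyond their spread. The regulators Srebf1 and Srebf2 stood at 549 ± 25.2 and 527 ± 52.8 per kb. The sterol genes with a known transcript length lay between Fdps at 512 ± 83.8 and Mvk at 53.8 ± 8.51. The lowest levels were those of Acacb at 9.16 ± 1.83, Fabp3 at 3.05 ± 2.30 and Cd36 at 2.64 ± 1.43 per kb. The order is set by annotated transcript length and could move where cells use a shorter form.

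**Figure D2:**
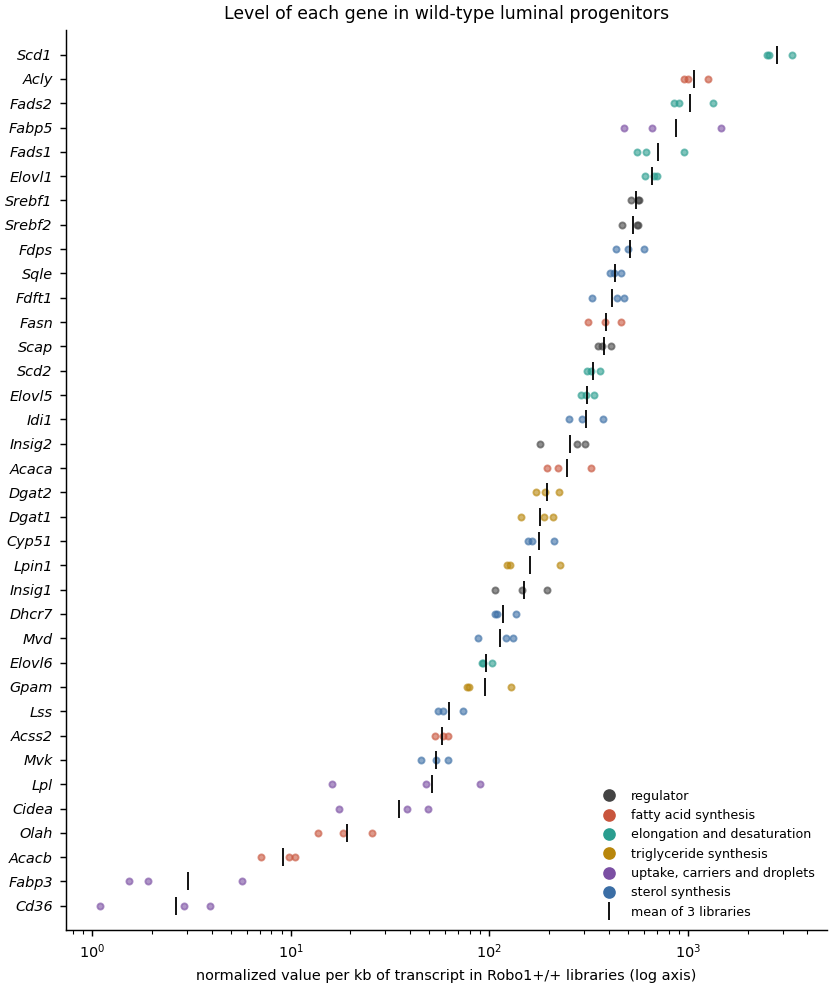
Normalized value per kb of the longest coding transcript in the 3 Robo1+/+ libraries (x axis, log scale) for each lipid and sterol gene with a known transcript length (y axis). Points are libraries coloured by class and the bar is their mean; Scd1 is at the top at a mean of 2801 per kb and Cd36 at the bottom at 2.64.

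Among the regulators, Srebf1, Srebf2 and Scap had a wide gap in gh18. Srebf1 had values of 2237, 2421 and 2428 in Robo1+/+ and of 2344, 2191 and 251 in Robo1-/-. Srebf2 had 2324, 2763 and 2797 against 2395, 2073 and 660. Scap, the escort protein, had 1497, 1737 and 1568 against 1747, 1485 and 404. In each of these 3 genes gh06 and gh12 lay within or near the Robo1+/+ range and gh18 lay far below it, at 10.8%, 26.7% and 25.2% of the mean of the other 5 libraries. Their log2 fold changes were -1.11 (SE 0.82), -0.82 (SE 0.48) and -0.65 (SE 0.54), and without gh18 they were -0.06, -0.23 and 0.01. After the GC correction they were -0.41, -0.20 and 0.12, so that Scap changed sign. Srebf2 was the only one of the 3 in which the GC-corrected groups did not overlap.

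The Insig genes, which hold SREBP in the endoplasmic reticulum, lacked this gap in gh18. Insig1, itself an SREBP target, had 518, 386 and 282 in Robo1+/+ against 289, 359 and 489 in Robo1-/-, and the groups overlapped fully. Insig2 had 489, 823 and 746 against 733, 1105 and 876, where 2 of the 3 Robo1-/- libraries lay above all Robo1+/+ libraries (log2 fold change 0.41, SE 0.29). The median log2 fold change of the 5 regulators was -0.65 as deposited, -0.18 after the GC correction and -0.06 without gh18.

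In fatty acid synthesis, Acly, Fasn and Acaca were the abundant enzymes. Acly, which makes cytosolic acetyl-CoA from citrate, lies at chr11:100337667-100389314 on the minus strand of mm9. It had values of 5562, 4456 and 4231 in Robo1+/+ and of 4013, 3788 and 3045 in Robo1-/-. Every Robo1-/- library was below every Robo1+/+ library, with means of 4750 ± 713 and 3615 ± 506 (SD, n = 3 each) and a log2 fold change of -0.39 (SE 0.21, unadjusted p = 0.107, adjusted p = 0.858, limma). The groups stayed apart after the GC correction at -0.28 (SE 0.16) and without gh18 at -0.27 (SE 0.17). Fasn, the synthase that builds palmitate, had 4431, 3676 and 3001 against 3167, 1934 and 433. Here gh06 lay inside the Robo1+/+ range, gh12 below it, and gh18 at 13.4% of the mean of the other libraries. Its log2 fold change was -1.40 (SE 0.68, unadjusted p = 0.080, adjusted p = 0.858, limma), and it was -0.80 (SE 0.31, unadjusted p = 0.035) after the GC correction and -0.56 (SE 0.26, unadjusted p = 0.070) without gh18. The adjusted p was 0.938 or more in both of these.

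Acaca and Acacb encode the carboxylases that make malonyl-CoA, the first for synthesis in the cytosol and the second at the mitochondrion. Acaca had 3102, 2119 and 1850 in Robo1+/+ against 1837, 1446 and 3038 in Robo1-/-, with gh03 and gh18 the highest of all (log2 fold changes -0.20, -0.27 after the GC correction and -0.50 without gh18). Acacb was low, at 62.3, 86.2 and 92.9 against 193, 139 and 20.4, so that gh06 and gh12 lay above every Robo1+/+ library and gh18 below. Its log2 fold change was 0.06 (SE 0.81) with all libraries, 0.59 after the GC correction and 1.04 (SE 0.29, unadjusted p = 0.0093, adjusted p = 0.938 or more, limma) without gh18. Acss2, which makes acetyl-CoA from acetate, had 172, 181 and 157 against 147, 254 and 181. Olah, the thioesterase that releases medium-chain fatty acids, was low at 28.0, 21.2 and 39.4 against 11.5, 21.1 and 61.3 (log2 fold changes -0.20, -0.41 and -0.83 in the same order). Both overlapped between genotypes. The median log2 fold change of the 6 fatty acid synthesis genes was -0.20 as deposited, -0.27 after the GC correction and -0.39 without gh18.

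Elongases and desaturases split in direction. Scd1 had values of 12087, 12373 and 16180 in Robo1+/+ and of 11803, 24270 and 30559 in Robo1-/-. Both gh12 and gh18 were above every Robo1+/+ library and gh06 was below all of them (log2 fold change 0.62, SE 0.37, unadjusted p = 0.142, adjusted p = 0.858, limma). The value was 0.47 after the GC correction and 0.33 without gh18. Scd2, a second stearoyl-CoA desaturase, had 1973, 1782 and 1695 against 1829, 2771 and 2287 (log2 fold change 0.32, SE 0.22). Scd1 and Scd2 are similar in sequence, and how reads matching both were counted is not given in the sources used here.

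Fads2 and Elovl1 were the members of this class that were lower without overlap. Fads2, the delta-6 desaturase of polyunsaturated fatty acids, lies at chr19:10138654-10175993 on the minus strand of mm9. It read 2017, 1357 and 1278 in Robo1+/+ against 1158, 905 and 849 in Robo1-/-, with means of 1550 ± 406 and 971 ± 164 (SD, n = 3 each). The log2 fold change was -0.66 (SE 0.26, unadjusted p = 0.038, adjusted p = 0.858, limma), with -0.69 from edgeR and -0.67 from DESeq2. The unadjusted p rose to 0.129 without gh03, 0.062 without gh09, 0.102 without gh12 and 0.050 without gh18 (limma). After the GC correction the value was -0.21 (SE 0.33) and the groups overlapped. Elovl1, an elongase of very long saturated chains at chr4:118100698-118105558 on the plus strand, had 1101, 1228 and 1271 against 978, 1043 and 972 (log2 fold change -0.26, SE 0.19, unadjusted p = 0.199, adjusted p = 0.858, limma). It too overlapped after the GC correction, at -0.13 (SE 0.15).

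Fads1, the delta-5 desaturase, had 3324, 2129 and 1919 against 1969, 2320 and 2942 and a log2 fold change of -0.01 (SE 0.28). Elovl5 had 807, 857 and 942 against 762, 957 and 1350, and Elovl6, which lengthens palmitate to stearate, had 617, 556 and 550 against 474, 663 and 951. In both elongases gh06 was the lowest library and gh18 the highest, and the fold changes of 0.20 and 0.22 went to -0.02 with the GC correction. The median of the 7 genes was 0.20 as deposited, -0.02 after the GC correction and -0.03 without gh18.

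Triglyceride synthesis was represented by 4 genes, 2 lower and 2 higher by point estimate. Dgat1 and Dgat2 encode unrelated enzymes for the last step, the addition of the last acyl chain. Dgat1, at chr15:76332445-76342381 on the minus strand of mm9, had values of 272, 357 and 395 in Robo1+/+ and of 259, 256 and 267 in Robo1-/-. The groups did not overlap, although gh03 and gh18 were close (means 342 ± 62.8 and 261 ± 5.51, SD, n = 3 each). Its log2 fold change of -0.37 (SE 0.25, unadjusted p = 0.178, adjusted p = 0.858, limma) became 0.15 (SE 0.41) after the GC correction and was -0.39 (SE 0.21) without gh18. Dgat2 had 386, 429 and 503 against 1081, 674 and 127. As with Acacb, gh06 and gh12 lay above every Robo1+/+ library and gh18 lay below. Its log2 fold change was 0.05 (SE 0.74) with all libraries, 0.54 (SE 0.41) after the GC correction and 0.97 (SE 0.24, unadjusted p = 0.0058, adjusted p = 0.938, limma) without gh18. Gpam, the acyltransferase of the first step, had 481, 803 and 493 against 1044, 724 and 524. Lpin1, the phosphatidate phosphatase, had 1284, 695 and 716 against 630, 606 and 770, with gh03 the highest library. The median of the class was -0.16 as deposited, 0.20 after the GC correction and 0.10 without gh18.

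The genes of uptake, intracellular carriage and droplets varied widely among libraries of 1 genotype. Fabp5, a fatty acid binding protein of epithelia, had 1457, 473 and 652 in Robo1+/+ and 388, 287 and 927 in Robo1-/-. Lpl, the lipase that frees fatty acids from circulating lipoproteins, had 369, 66.6 and 197 against 148, 54.1 and 222. In both genes gh03 was highest, followed by gh18 and then gh15, and gh12 was lowest. Cd36, a fatty acid transporter, was near its limit of detection in places, with 14.0, 3.92 and 10.3 against 1.15, 3.66 and 17.5, where 3 reads amount to 2.35 to 4.38 units. Cidea, a droplet protein needed for milk lipid secretion, had 20.4, 44.7 and 57.2 against 41.4, 33.0 and 17.5. Fabp3, the carrier that marks lactating tissue, was not tested, since its values lay between 1.15 and 4.69 in all 6 libraries.

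The 4 tested genes of this class had log2 fold changes of -0.36 to -0.72 with SEs of 0.53 to 0.87, larger in size than every one of the fold changes except that of Fabp5 (-0.71, SE 0.56). Their median of -0.59 became -0.82 after the GC correction and -1.05 without gh18. Left without gh03 or gh09 instead, the class median was -0.32 or -1.10. Lpl went from -0.48 to -0.74 with the correction and -0.91 without gh18, and Cd36 from -0.72 to -1.09 and -1.57. Fabp5 had a log2 fold change of -1.20 without gh18 (SE 0.46, unadjusted p = 0.036, adjusted p = 0.938 or more, limma), but of -0.24 without gh03 and -0.35 without gh12. The class median by library, as a log2 difference from the Robo1+/+ mean, was 0.80, -0.82 and 0.24 in Robo1+/+ and -0.58, -1.22 and 0.33 in Robo1-/-. As deposited, each genotype thus had libraries above and below the Robo1+/+ mean. After the GC correction, gh06 (-0.55), gh12 (-1.34) and gh18 (-0.14) all lay below it. So did gh09 (-0.79), a Robo1+/+ library, while gh03 (0.79) and gh15 (0.23) lay above it. The genotypes therefore still overlapped after the correction.

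The order of libraries in Lpl and Fabp5, as deposited, was also seen in milk protein genes. Csn1s1, a casein, had 18257, 2317 and 6291 in Robo1+/+ and 2432, 2355 and 14946 in Robo1-/-, and Csn2, a second casein, had 13698, 1139 and 2832 against 674, 303 and 5456. In Lpl, Fabp5 and both caseins gh03 was highest, followed by gh18 and then gh15. Cidea, of the same class as Lpl, went the other way, with gh18 and gh03 the lowest. After the GC correction the median of that class was lower in gh18 (-0.14) than in gh15 (0.23). Csn3 and Lalba did not share the order of the caseins, and both were higher without overlap in Robo1-/- as deposited (log2 fold changes 0.85 and 0.79). Of all tested genes, 4.83% were higher without overlap, and none passed an adjusted p of 0.05 (limma). Neither Csn3 nor Lalba is given here after the GC correction or without gh18, so no genotype difference is drawn from them. Of the 36 tested lipid and sterol genes, gh03 and gh18 were the highest pair in 9 (25%), against 14.95% of all tested genes. These were Insig1, Acaca, Fads1, Lpin1, Lpl, Cd36, Fabp5, Idi1 and Cyp51, and the part that differences between single libraries play in the genotype comparison was not tested.

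**Figure D3:**
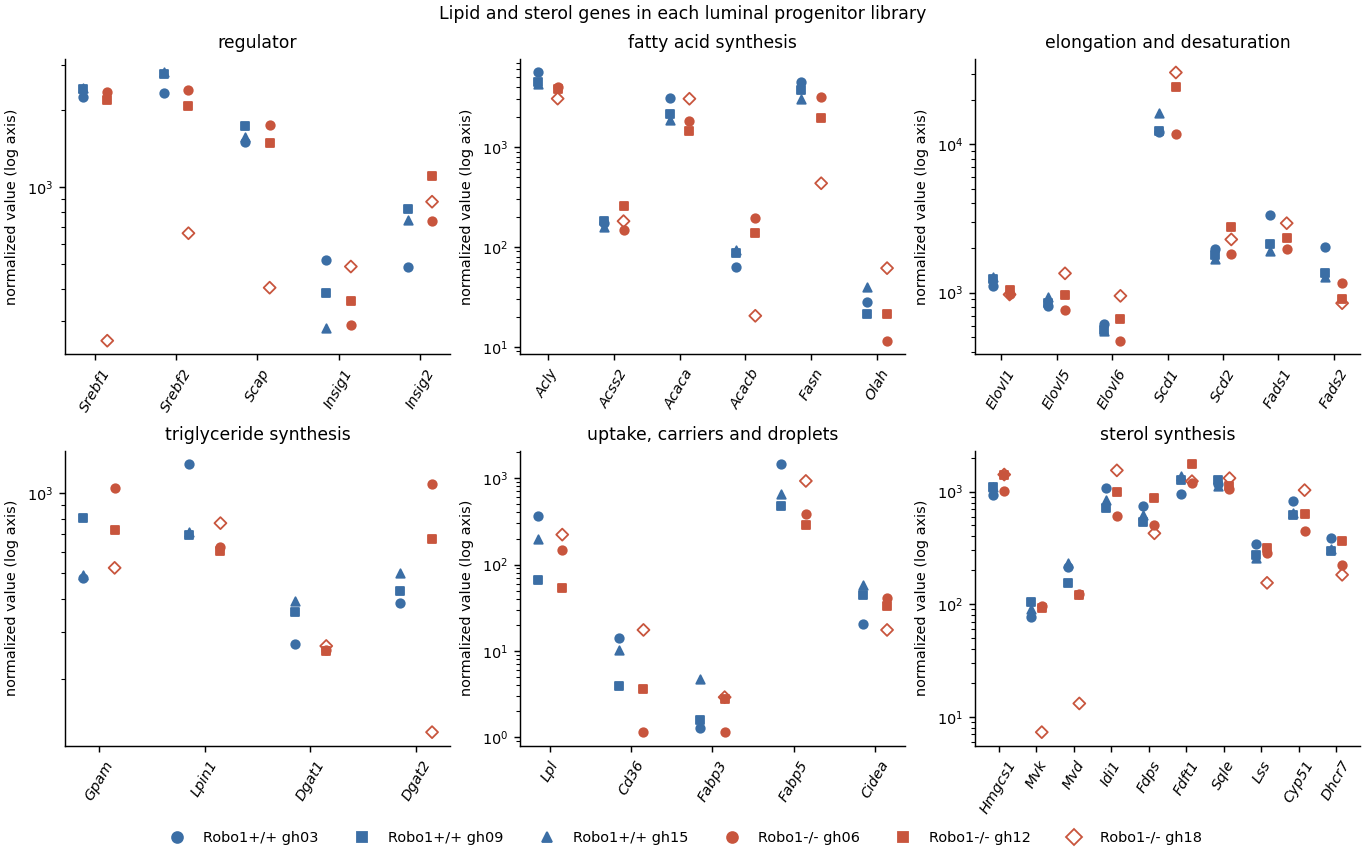
Normalized value (y axis, log scale) of all 37 genes in the 6 libraries, in 1 panel per class; blue symbols are Robo1+/+ libraries and red symbols Robo1-/- libraries, with gh18 as an open diamond. The open diamond lies far below the rest in Srebf1 (251), Fasn (433), Mvk (7.30) and Mvd (13.1), and at the top in Scd1 (30559).

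Sterol synthesis held 10 genes, of which 7 were lower and 3 higher by point estimate, with a median log2 fold change of -0.09. Hmgcs1, which makes HMG-CoA at the entry to the branch, had 936, 1100 and 1098 in Robo1+/+ and 1020, 1399 and 1417 in Robo1-/- (log2 fold change 0.28, SE 0.22). The table held 2 rows for this symbol with nearly the same values, and the row with more reads is given. Its reads are uncertain if they were shared with a near-identical copy.

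Mvk and Mvd encode the mevalonate kinase and the decarboxylase that follows in the same branch. Mvk had 76.3, 105 and 91.0 against 95.5, 92.5 and 7.30, so that only gh18 lay outside the Robo1+/+ range. Mvd, at chr8:124957496-124967322 on the minus strand of mm9, had 214, 155 and 231 against 123, 120 and 13.1. Each Robo1-/- library was below each Robo1+/+ library, with means of 200 ± 39.7 and 85.4 ± 62.6 (SD, n = 3 each), and gh18 stood at 7.79% of the mean of the other 5. The log2 fold change of Mvd was -1.73 (SE 0.84, unadjusted p = 0.078, adjusted p = 0.858, limma). It was -0.94 (SE 0.37, unadjusted p = 0.038, adjusted p = 0.999, limma) after the GC correction. Without gh18 it was -0.69 (SE 0.24, unadjusted p = 0.026, adjusted p = 0.938, limma), and the genotypes did not overlap either way. With the correction and without gh18 together it was -0.60 (unadjusted p = 0.059). Mvk in turn had -1.11 (SE 0.94), with -0.32 after the GC correction and 0.06 without gh18.

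The remaining sterol genes overlapped between genotypes. Idi1, the isomerase of the isoprene unit, had 1078, 720 and 836 in Robo1+/+ against 610, 998 and 1544 in Robo1-/-. Fdps, which makes farnesyl diphosphate, had 742, 537 and 615 against 502, 886 and 426. Fdft1, the squalene synthase, had 944, 1264 and 1363 against 1185, 1760 and 1237. The log2 fold changes of these 3 lay between -0.12 and 0.22. Sqle, the squalene epoxidase and a control point of the branch, had 1165, 1267 and 1114 against 1053, 1122 and 1316 (log2 fold change -0.03, SE 0.20). Lss, which closes the sterol ring, had 344, 272 and 259 against 282, 316 and 155. Cyp51, a demethylase of lanosterol, had 831, 615 and 643 against 443, 631 and 1030, and Dhcr7, the last reductase to cholesterol, had 384, 299 and 307 against 222, 366 and 182. In Cyp51 and Idi1 gh06 was the lowest library and gh18 the highest, and in Lss, Fdps and Dhcr7 gh18 was the lowest. The log2 fold change of Cyp51 was -0.06 as deposited, -0.25 after the GC correction and -0.38 without gh18, and that of Lss was -0.27, -0.15 and 0.05 in the same order.

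In all, 5 of the 36 tested genes (13.9%) were lower in Robo1-/- without overlap, namely Acly, Elovl1, Fads2, Dgat1 and Mvd, against 4.58% of all tested genes. None was higher without overlap, against 4.83%. The two-sided exact permutation p of each of the 5 was 0.1, the smallest that 3 against 3 libraries can give. Lack of overlap fixes this value, so it adds nothing to the count. After the GC correction, 3 were lower without overlap (Srebf2, Acly and Mvd; background 3.15%) and 0 higher (background 3.42%). At an unadjusted p under 0.05 the corrected values gave 2 lower, Fasn and Mvd (background 0.67%, or 1.57% in either direction), and 0 higher (background 0.901%). Without gh18, where 2 libraries faced 3, 10 were lower without overlap (27.8%, background 10%) and 2 higher, Acacb and Dgat2 (5.56%, background 10.1%). An unadjusted p under 0.05 was then reached by 2 lower, Fabp5 and Mvd (background 2.29%), and by the same 2 higher (background 1.91%), 4.2% of all genes passing in either direction. Acly and Mvd were the genes that were lower without overlap in all 3 of these readings. The genes had been chosen with results of these data known, and the counts are descriptions.

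**Figure D4:**
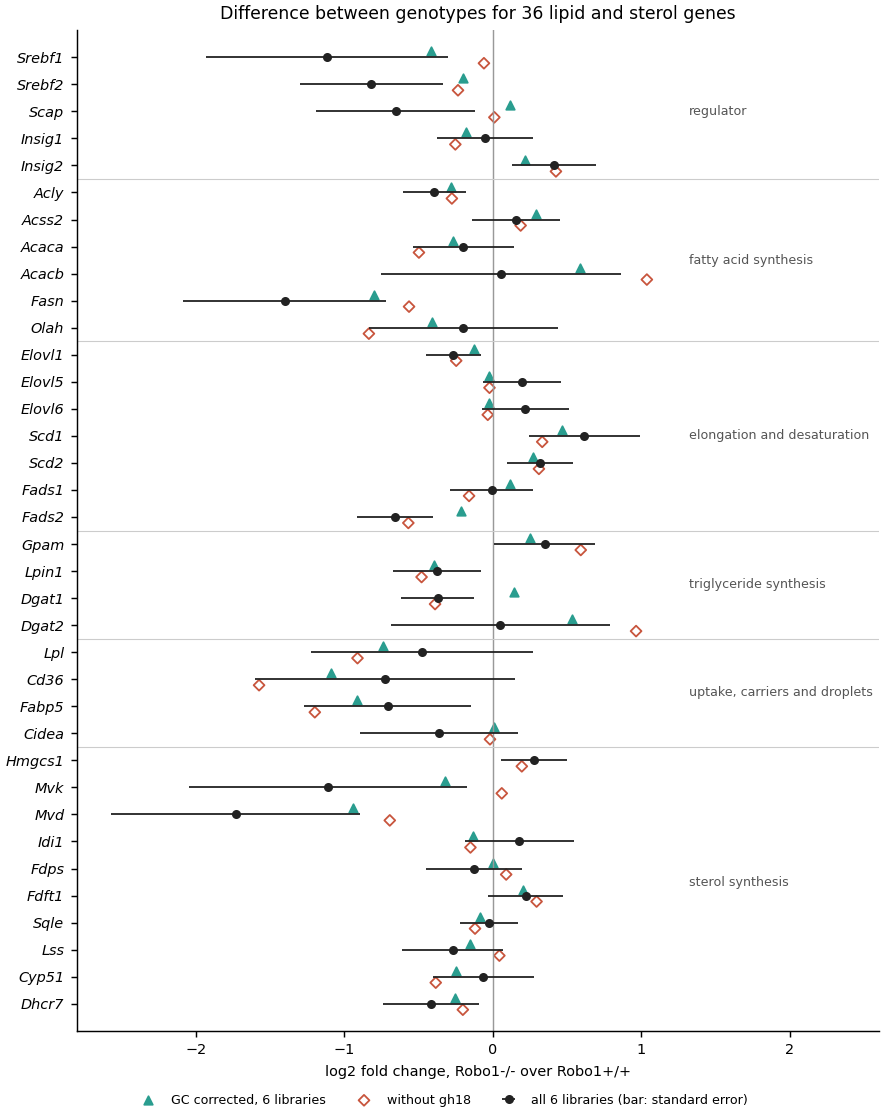
Log2 fold change of Robo1-/- over Robo1+/+ (x axis) for the 36 tested genes, grouped by class (y axis). Black points with bars are the values and standard errors from all 6 libraries, green triangles the GC-corrected values and open red diamonds the values without gh18; the 3 marks lie far apart for Srebf1, Mvk, Acacb and Dgat2 and close together for Acly and Sqle.

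By library, the median of the 36 genes as a log2 difference from the Robo1+/+ mean was 0.06, -0.03 and -0.03 in Robo1+/+ and -0.20, -0.08 and -0.03 in Robo1-/-. The regulators stood at -1.98 in gh18 as deposited and at -0.13 after the GC correction. Fatty acid synthesis was the class that lay below 0 in all 3 Robo1-/- libraries both as deposited (-0.22, -0.37 and -0.27) and after the correction (-0.23, -0.42 and -0.03). The Robo1+/+ libraries stood at -0.13 to 0.13 as deposited and at -0.13 to 0.16 after the correction. The corrected value of gh18 thus lay within the Robo1+/+ range. The triglyceride, elongation and sterol classes had Robo1-/- libraries on both sides of 0.

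**Figure D5:**
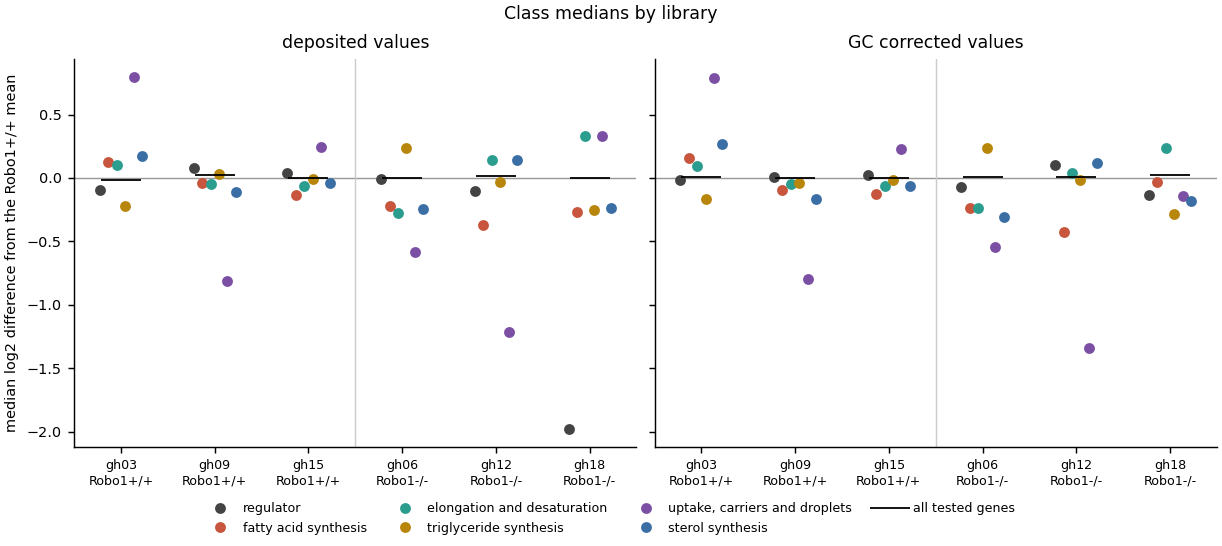
Median log2 difference from the Robo1+/+ mean (y axis) for each class of genes in each library (x axis), as deposited (left) and after the GC correction (right); black bars are the median of all tested genes. The regulator class lies at -1.98 in gh18 on the left and at -0.13 on the right, while the uptake class ranges widely among libraries of both genotypes in both panels.

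Other genes of the same pathways, 86 in a list made for this comparison, were read beside the 37. Of these, 81 were in the table and 72 were tested, with 44 lower and 28 higher by point estimate and a median log2 fold change of -0.14. None had an unadjusted p under 0.05 with limma (smallest p 0.051) or edgeR, whose smallest was 0.050, and DESeq2 gave 1. The direction turned on gh18. Without it 36 were lower and 39 higher of 75 tested, with a median of 0.02. Of these, 3 were lower at an unadjusted p under 0.05 with limma (background 2.29%). Without overlap, 8 were lower and 8 higher (10.7% each, background 10% and 10.1%). With the GC correction as well, 5 of 72 were lower at an unadjusted p under 0.05 (background 2.42%). With the correction and all 6 libraries, the median was -0.04 and none passed. In the 6 libraries as deposited, lower without overlap were Aacs, Fads3, Bscl2 and Abcg1, and higher was Mylip. These 5 were named after their values were seen. Their shares of the tested list, 5.56% lower and 1.39% higher, stood beside the 4.58% and 4.83% of all genes.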

How the data were processed

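RNA of sorted luminal progenitors was sequenced from poly(A)+ libraries of 3 Robo1+/+ and 3 Robo1-/- pools. The authors trimmed reads, removed repeats, aligned to mm9 with TopHat and normalized counts. The study's methods name bowtie2 and DESeq2 for the repeats and the normalization, while the labels list Bowtie, SAMtools and DESeq. The counting tool, strand setting and rule for reads matching several places are not given in the sources used here. The deposited values are a normalized signal, gene counts divided by 1 size factor per library. Multiples of the smallest step gave back whole reads in all but 7 values. Genes were kept by edgeR's filterByExpr (13692 of 18537 clusters). The main test was limma (3.58.1) on log2(value + 1), with a trend and Benjamini-Hochberg adjustment over all tested genes. With 5 added in place of 0.5, the fold change of Mvk went from -1.14 to -0.94 and that of Cd36 from -0.83 to -0.37. That of Acacb grew from 0.0521 to 0.0918. For Mvk and Cd36 the main values (-1.11 and -0.72) were still larger in size than those of edgeR (-0.47 and -0.40). For Acacb the main value was the smaller one (0.06 against 0.55). edgeR (4.0.16) and DESeq2 (1.42.0) on the recovered reads were alternatives. For the GC correction, log2 deviations were smoothed on GC content by lowess (span 0.3) and the curve was taken off each library, with GC content from GENCODE M1 on NCBI build 37. On simulated data with 200 of 13692 genes changed by 2 on the log2 scale, the main test called 191 (95.5%) and 11 others. The simulated spread was estimated without gh18, no library was given a trend on GC content, and only genes with many reads were changed. The share called therefore does not measure the power of the main test on the deposited libraries, which include gh18. Genes of the set are all named by class, with full statistics for those without overlap or with an unadjusted p under 0.05. Pathway genes were to be named at an unadjusted p under 0.05. The set, the lists and the alternatives were chosen with earlier results of these data known.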

Additional observations from a re-analysis of the deposited data

How the results depend on the processing

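No alternative gave any of the 37 genes an adjusted p under 0.05, the lowest adjusted p among them ranging from 0.555 (limma, without gh06) to 0.999 (limma, GC correction). No paired analysis was possible because the labels give the libraries no shared replicate numbers. TMM scaling, pseudocounts of 0.5 and 5, no filter and a mean of at least 10 reversed no fold change and moved no count or class median past its limit; upperquartile scaling turned Fads1 to 0.0099.

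With the GC correction, the count with an unadjusted p under 0.05 was 2 lower, the count without overlap 3 lower, and the triglyceride median 0.20. Scap (0.12), Fads1 (0.12), Dgat1 (0.15), Cidea (0.0106) and Fdps (0.0021) became higher, and Elovl5 (-0.0249), Elovl6 (-0.024) and Idi1 (-0.13) lower. With the GC correction and no gh18, 13 were lower without overlap (37.1%, against 10.8% of all tested genes) and 2 higher (5.71%, against 11.1%). At an unadjusted p under 0.05 with limma, 2 were higher (2.03% of all) and 1, Fabp5, was lower (2.42% of all). The medians were 0.0128 for the regulators, -0.39 for fatty acid synthesis, -0.0704 for elongation and desaturation and 0.11 for triglyceride synthesis. There Srebf1 (0.0128), Scap (0.0986), Cidea (0.0046), Mvk (0.15), Fdps (0.0903) and Lss (0.0438) became higher, and Elovl5 (-0.0549), Elovl6 (-0.0704) and Idi1 (-0.19) lower. With edgeR the fatty acid median was -0.065 and Olah 0.0472; with DESeq2 the median over the 36 genes of the main test was -0.11 (-0.16 with Fabp3), that of fatty acid synthesis -0.0405, Olah 0.0758 and Cyp51 0.0141. The cause of these changes was not tested beyond the construction of each alternative.

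Leaving out each library in turn gave 0 to 3 genes lower at an unadjusted p under 0.05 (0 without gh03 or gh09, 2 without gh18 and 3, Fasn, Fads2 and Mvd, without gh06) and 0 to 2 higher (1, Scd1, without gh06 and 2 without gh18). The shares of all tested genes that were lower by this rule were 0.536% without gh03, 0.592% without gh09, 2.29% without gh18 and 4.89% without gh06, and those higher 1.55% without gh06 and 1.91% without gh18. Without overlap, 5 to 10 were lower (8 without gh03, 9 without gh06, 10 without gh18) and 0 to 6 higher (1 without gh03 or gh09, 2 without gh18, 6 without gh06). With 2 libraries against 3, the lower share of all tested genes was 7.1% to 15.2% (10.1% without gh03, 15.2% without gh06) and the higher share 6.93% to 14.9% (14.9% without gh06). The median of all members ranged from -0.265 to -0.0605 (the latter without gh03), fatty acid synthesis from -0.39 (without gh18; -0.33 without gh09) to -0.16, elongation and desaturation from -0.0326 (without gh18) to 0.39, triglyceride synthesis from -0.35 to 0.10 (without gh18), the regulators from -1.04 (without gh06) to -0.0584 (without gh18), uptake from -1.10 (without gh09) to -0.32 (without gh03) and sterol synthesis from -0.23 (without gh12) to 0.008 (without gh06). Fold changes that changed sign ranged from -1.04 to 0.0118 for Scap, -0.27 to 0.17 for Insig1, -0.0539 to 0.34 for Acss2, -0.50 to 0.0388 for Acaca, -0.55 to 1.04 for Acacb, -0.83 to 0.32 for Olah, -0.0211 to 0.39 for Elovl5, -0.0326 to 0.47 for Elovl6, -0.16 to 0.23 for Fads1, -0.57 to 0.97 for Dgat2, -1.15 to 0.0983 for Lpl, -1.71 to 0.0617 for Mvk, -0.15 to 0.52 for Idi1, -0.44 to 0.0913 for Fdps, -0.12 to 0.0423 for Sqle, -0.47 to 0.0455 for Lss and -0.38 to 0.22 for Cyp51. These ranges are of point estimates from 2 libraries against 3 and are not confidence intervals. The series held only 3 libraries per genotype, and at Cd36 and Fabp3 the number of reads limits what could be seen.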
